A study of Mus musculus with 9 samples.

Results

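Proteasome subunit genes and the genes of the proteasome's activators were followed in sorted follicular B cells, resting cells that circulate through the spleen's follicles, of mice with 3 heavy chain genotypes. The genes were chosen by name: every gene whose probe set on the array carried 1 symbol, beginning with Psma, Psmb, Psmc, Psmd or Psme and followed by a digit, was taken. The rule found 44 of the 22180 genes with such a probe set, and the brightest probe set stood for each gene. The labels give the genotypes as Igh[epsilon]/[epsilon] VJk5, Igh[gamma]1/[gamma]1 VJk5 and Ighwt VJk5, written here as ε/ε, γ1/γ1 and wild-type. All 3 therefore share VJk5, which the labels do not explain, and how the alleles were built is not analysed here. The mice were 6 to 12 weeks old, called polyclonal and kept in a specific-pathogen-free facility, and each genotype had 3 arrays. The replicates are called independent without a statement that each is a separate animal, so p-values here reflect only how these samples scatter, which may in part be technical. The question set by the series is how the isotype and dose of the B cell receptor bear on B cell fate.

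The proteasome is the protease that degrades proteins tagged with ubiquitin. Its barrel-shaped core particle has outer rings of α subunits (Psma genes), which gate entry, and inner rings of β subunits (Psmb genes), some of which cut peptide bonds. A regulatory particle caps the core. Its ATPases (Psmc genes) unfold substrates and thread them into the core, while its other subunits (most Psmd genes) bind and remove ubiquitin and hold the particle together. Interferon induces the alternative catalytic subunits Psmb8, Psmb9 and Psmb10 of the immunoproteasome, which lymphocytes also express without infection, and the PA28 activator made of Psme1 and Psme2. Peptides cut by proteasomes are loaded on MHC class I molecules.

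In ε/ε follicular B cells, Psme2 was higher than in wild-type cells, and the core subunit Psma3 and the ubiquitin-removing subunit Psmd14 were lower. These were the 3 of the 41 genes tested that passed the threshold in any comparison. As background for this count, 2.33% of all 12170 genes tested passed as higher in that comparison, and 4.02% passed as lower. All 3 calls were lost when wild-type replicate 2 or wild-type replicate 3 was left out. The other subunits of the core and regulatory particle mostly had lower means in ε/ε than in wild-type cells, by small amounts and without passing. The inducible catalytic subunits did not follow that direction together. In γ1/γ1 cells no gene of the set passed against wild-type, but the core and regulatory means were mostly lower there too. Of the 29 tested genes of the constitutive core and regulatory particle, 26 had lower means than wild-type in γ1/γ1 and 24 in ε/ε.

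Values are log2 signals as deposited, and a difference of 1 is a 2-fold change. Probe sets differ in how they respond, so levels are compared between arrays and not between genes. A gene was tested if its signal exceeded the array's median on at least 3 of the 9 arrays. Of the 44 genes, 41 met this filter. The 3 that did not were Psma5, an α subunit found in all proteasomes, Psma8, the α subunit of the testis, and Psmb11, the catalytic subunit of the thymic epithelium. Psma5 lay between 2.35 and 3.19 on all arrays on its brighter probe set, a level at which it cannot be measured. Psmb11 lay between 2.92 and 3.59 and Psma8 between 2.78 and 3.91. Psma4, an α subunit, had no probe set of its own: its brighter one is shared with AY074887 and read 5.77, 6.87 and 6.41 in ε/ε, 6.76, 6.92 and 6.50 in γ1/γ1, and 6.96, 7.12 and 7.37 in wild-type cells. It was not tested, and the ε/ε and γ1/γ1 values all lay under the wild-type ones. The tests ran over 12170 genes in 1 limma model of the 9 arrays, and a gene passed at a Benjamini-Hochberg adjusted p under 0.05.

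B cell markers were present on all arrays, with 7 markers averaging 8.58 to 9.17 on each array. The macrophage list of 16 genes averaged 6.43 on ε/ε replicate 1, against 4.43 and 3.98 on the other ε/ε arrays, 3.66 to 3.83 in γ1/γ1 and 3.62 to 3.70 in wild-type cells, and 14 of its genes lay more than 1 above their wild-type mean on that array. The follicular list of 4 genes averaged 7.37 to 8.05 in ε/ε against 8.57 to 8.83 on the other arrays. Its genes went both ways: Zfp318 read 6.97 to 7.79 in ε/ε and 9.42 to 9.54 in wild-type cells, and Fcer2a 9.36 to 9.97 and 9.02 to 9.51. Cd200 and Cd55 lay lower in ε/ε like Zfp318, below all wild-type values, so that only Fcer2a had a higher mean. The marginal zone list of 6 averaged 5.41 to 5.48 in ε/ε, 5.15 to 5.46 in γ1/γ1 and 4.89 to 5.02 in wild-type cells. Its largest differences were those of Myof (5.16 to 5.39 in ε/ε, 3.18 to 3.85 in wild-type cells) and Dtx1 (6.29 to 6.48 and 5.06 to 5.57). Cr2 and S1pr3 also lay above wild-type, Cd9 overlapped, and Cd1d1 leaned the other way (4.82 to 4.89 and 4.89 to 5.20). The dendritic cell list averaged 3.56 to 3.74 in ε/ε, 3.43 to 3.65 in γ1/γ1 and 3.3 to 3.38 in wild-type cells, and the T cell list 3.39 to 3.62, 3.27 to 3.45 and 3.25 to 3.32 in the same order. The 5 proliferation genes averaged 3.97, 4.03 and 3.61 in ε/ε, 3.36 to 3.62 in γ1/γ1 and 3.52 to 3.59 in wild-type cells. The plasma cell list averaged 4.21 to 4.52 in ε/ε, 4.07 to 4.18 in γ1/γ1 and 4.05 to 4.26 in wild-type cells. Of its genes, Xbp1 (5.65 to 6.45 in ε/ε, 4.63 to 5.31 in wild-type cells) and Irf4 (6.53 to 6.98 and 6.19 to 6.51) read higher on every ε/ε array than on all others. Its other genes overlapped between ε/ε and wild-type. Neutrophil and NK cell lists averaged between 2.65 and 4.23, and no erythroid marker had a probe set. Xist, which is transcribed from the inactive X chromosome of females, was low on ε/ε replicate 1 (5.25) and γ1/γ1 replicate 1 (4.53) and between 10.37 and 10.79 on the other arrays, so that no wild-type array had a low value. Fits without these arrays and a fit with a covariate for low Xist were run, and the part of the other features in the proteasome results was not tested. In these bulk samples, fewer cells of a type and less RNA per cell cannot be told apart.

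Against wild-type, 1 gene of the set passed as higher in ε/ε cells, where 2.33% of all genes tested did, and 2 passed as lower, where 4.02% did. These shares are also the background for the calls counted by role class below. Without ε/ε replicate 1 the set had 2 calls, Psma3 and Psme2, and after quantile normalization 1 passed as higher and 0 as lower. At an unadjusted p under 0.05 the set had 16 of 41 genes, 2 higher and 14 lower, against 24.8% of all genes. The 3 ε/ε values lay wholly above the 3 wild-type values for 3 genes (11.8% of all genes) and wholly below for 15 (16.6% of all genes). The mean was lower in ε/ε for 31 of the 41 genes, against 51.7% of all genes tested. The median difference over the set was -0.26, against -0.01 over all genes tested. The heat map of all genes of the set shows this as a column block of mostly lower values in ε/ε cells, interrupted by the inducible subunits and by Psmd3 and Psme2.

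**Figure D1:**
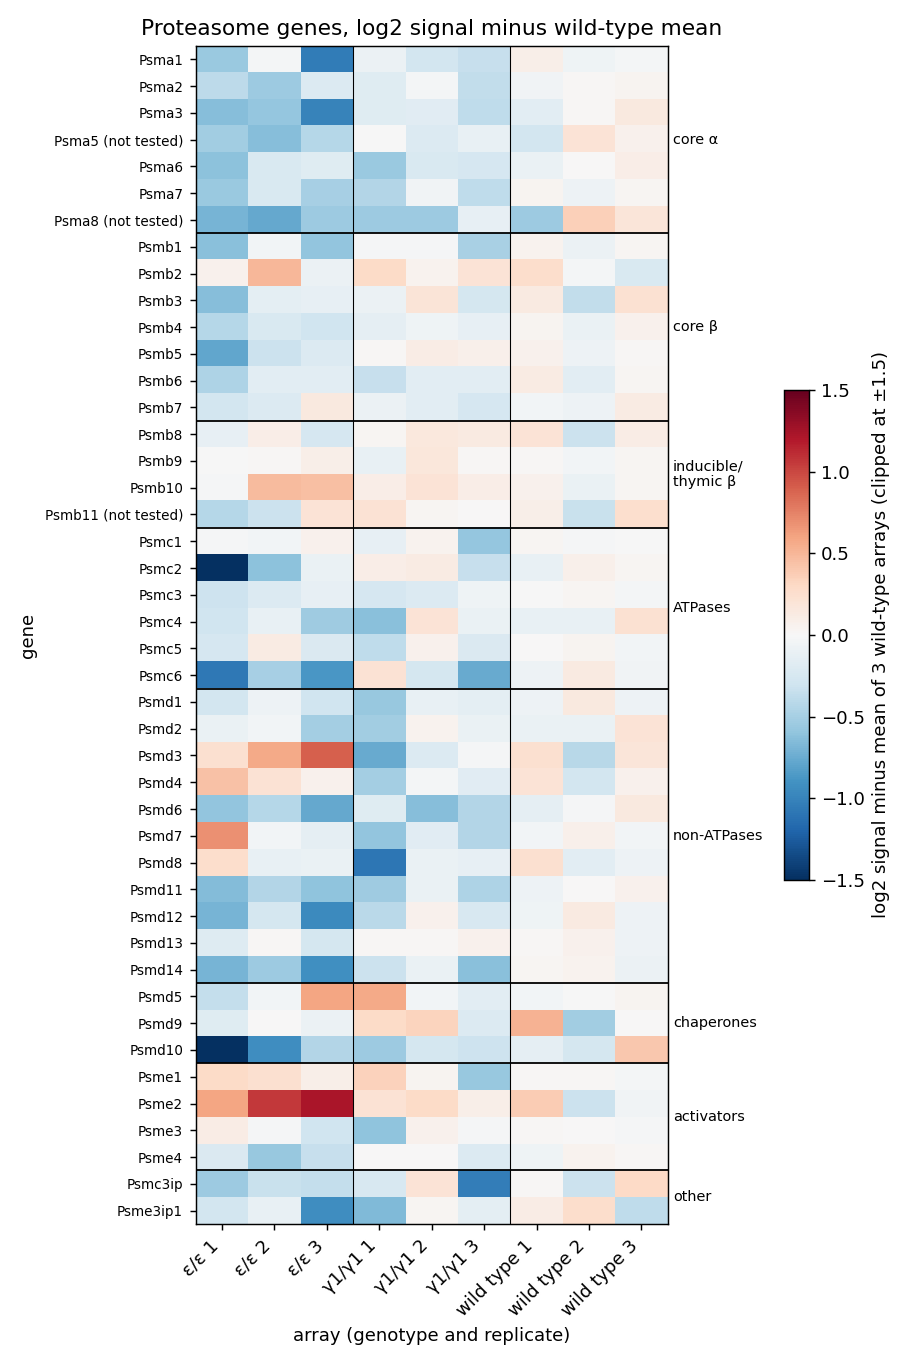
Log2 signal minus the gene's wild-type mean for the 44 genes of the set (rows, by role, with the 3 untested genes marked) on the 9 arrays (columns, by genotype and replicate), with blue for lower and red for higher and colours clipped at the ends of the scale. Genes of the core and regulatory particle are mostly lower on the ε/ε and the γ1/γ1 arrays, while Psme2 is higher on all 3 ε/ε arrays.

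The α ring was lower throughout in its means, and 1 of its 5 tested genes passed. Psma3 fell in ε/ε cells. Its promoter, the 250 bases upstream of the RefSeq start on GRCm38.p6, lies at chr12:70974373-70974622 on the plus strand. It is shown as that of 1 of the 3 genes that passed, with a CCAAT box, the element bound by NF-Y, in capitals.
Psma3: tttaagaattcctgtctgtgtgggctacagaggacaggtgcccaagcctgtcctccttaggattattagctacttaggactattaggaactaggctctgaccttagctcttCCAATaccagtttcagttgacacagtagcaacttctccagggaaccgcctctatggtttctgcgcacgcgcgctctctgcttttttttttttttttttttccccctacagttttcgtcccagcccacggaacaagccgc
On probe set 17276056, Psma3 read 7.90, 7.96 and 7.52 in ε/ε, 8.35, 8.36 and 8.14 in γ1/γ1 and 8.37, 8.55 and 8.67 in wild-type cells. The 3 ε/ε values lay below all others, and the γ1/γ1 values lay just under the wild-type ones. Psma3 in ε/ε thus differed from wild-type by -0.74 ± 0.16 (SE from the limma model, n = 3 arrays each), or 1.67-fold. Its adjusted p was 0.0258. Without ε/ε replicate 3, wild-type replicate 2 or wild-type replicate 3 the adjusted p was 0.0576, 0.0945 and 0.1, and after quantile normalization it was 0.0667.

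The other α subunits had smaller differences from wild-type that did not pass. Psma7 read 8.22, 8.56 and 8.28 in ε/ε and 8.82, 8.71 and 8.81 in wild-type cells, without overlap, a difference of -0.43 (adjusted p = 0.122). Psma2 read 6.74, 6.59 and 6.93 against 7.08, 7.15 and 7.18, a difference of -0.38 (adjusted p = 0.139). Psma6 differed by -0.34 in ε/ε (adjusted p = 0.226) and by -0.35 in γ1/γ1 (adjusted p = 0.727), each without overlap with wild-type, and the ε/ε difference was -0.20 without ε/ε replicate 1. Psma1 differed by -0.54 with an adjusted p of 0.173, and its ε/ε values of 6.34, 6.88 and 5.85 reached into the wild-type range of 6.83 to 6.99. The median difference of the 5 genes was -0.43 in ε/ε and -0.25 in γ1/γ1.

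Among the constitutive β subunits, 0 of 7 passed, and 6 of 7 had lower means in ε/ε than in wild-type cells. Psmb5, the chymotrypsin-like catalytic subunit, read 7.16, 7.62 and 7.74 in ε/ε, 7.97, 8.05 and 8.02 in γ1/γ1 and 8.01, 7.86 and 7.96 in wild-type cells. All ε/ε values lay below the other 6, which overlapped. The difference was -0.44 ± 0.16 from wild-type (SE, 95% interval -0.80 to -0.07, adjusted p = 0.134) and -0.50 from γ1/γ1 (adjusted p = 0.127). Without ε/ε replicate 1 the difference from wild-type was -0.26 (adjusted p = 0.291). Psmb6, the caspase-like subunit, differed by -0.26 from wild-type (95% interval -0.59 to 0.07) with overlapping values, and 5 of its 9 arrays held the same signal, 5.91. Its difference was -0.15 without ε/ε replicate 1. Psmb7, the trypsin-like subunit, differed by -0.11 (95% interval -0.44 to 0.22).

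Of the non-catalytic β subunits, Psmb4 differed by -0.32 (adjusted p = 0.154), with all ε/ε values below the wild-type ones. Psmb1 differed by -0.42 (adjusted p = 0.214) and Psmb3 by -0.30 (adjusted p = 0.418), both with overlap. Psmb2 was the exception, with a mean higher by 0.16 in ε/ε and by 0.18 in γ1/γ1 cells and overlapping values. The median over the 7 genes was -0.30 in ε/ε and -0.11 in γ1/γ1. Without ε/ε replicate 1 the ε/ε median was -0.15.

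The inducible catalytic subunits, which replace Psmb5, Psmb6 and Psmb7 in the immunoproteasome, showed no change that passed, in 0 of 3 genes. Psmb8, the counterpart of Psmb5, read 6.65, 6.87 and 6.51 in ε/ε, 6.80, 6.93 and 6.90 in γ1/γ1 and 6.97, 6.45 and 6.88 in wild-type cells. From wild-type, the ε/ε mean differed by -0.09 (95% interval -0.46 to 0.28). Psmb9, the counterpart of Psmb6, read between 8.48 and 8.76 on all 9 arrays. Its difference was 0.03 (95% interval -0.25 to 0.32), with 3 arrays at an identical signal of 8.60. Psmb10, the counterpart of Psmb7, read 7.04, 7.53 and 7.50 in ε/ε, 7.16, 7.26 and 7.16 in γ1/γ1 and 7.13, 6.95 and 7.09 in wild-type cells. The γ1/γ1 values lay above all wild-type ones and the ε/ε values overlapped them. The difference was 0.30 in ε/ε (95% interval -0.05 to 0.65, adjusted p = 0.269) and 0.13 in γ1/γ1 cells (adjusted p = 0.896). The former was 0.46 without ε/ε replicate 1 (adjusted p = 0.0908).

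The inducible subunit was set against its constitutive counterpart as a log2 ratio within each array. Since the absolute size of such a ratio has no meaning, the mean of the wild-type arrays was subtracted from each value. Psmb9 over Psmb6 was 0.46, 0.17 and 0.24 in ε/ε, 0.24, 0.33 and 0.17 in γ1/γ1 and -0.10, 0.11 and -0.00 in wild-type cells. All altered arrays lay above the wild-type ones, by 0.29 ± 0.11 (SE from the arrays compared) in ε/ε and by 0.24 ± 0.08 in γ1/γ1. The lowest altered values, 0.17 on ε/ε replicate 2 and γ1/γ1 replicate 3, came from identical signals of both genes. Wild-type replicate 2, at 0.11, held the same Psmb6 signal, so the margin there came from Psmb9 alone. Psmb10 over Psmb7 was 0.26, 0.68 and 0.30 in ε/ε, 0.19, 0.36 and 0.35 in γ1/γ1 and 0.11, -0.02 and -0.09 in wild-type cells. Here too no altered array overlapped wild-type, with differences of 0.41 ± 0.15 and 0.30 ± 0.08. Each of these 4 differences had a two-sided exact permutation p of 0.1, the smallest that 3 arrays against 3 allow, and an adjusted p of 0.225 over the 9 ratio tests, so this permutation test could not reach the threshold at this size. Psmb8 over Psmb5 overlapped in every comparison, with a difference of 0.35 between ε/ε and wild-type (exact permutation p = 0.3). With 1 array left out that difference ran from 0.19, without ε/ε replicate 1, to 0.55, without ε/ε replicate 3, and it was 0.23 without wild-type replicate 2. The ε/ε and γ1/γ1 ratios overlapped for all 3 pairs. The γ1/γ1 and ε/ε differences share the wild-type arrays and are not independent of each other.

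The upstream sequences of the inducible genes and of the counterparts with an entry are given because these genes form the contrast just described. Each is the 250 bases before the start in RefSeq on GRCm38.p6, and capitals mark matches to the motifs searched. Psmb8 lies at chr17:34197945-34198194 on the plus strand and Psmb9 at chr17:34187331-34187580 on the minus strand, close together in the MHC region. Psmb10 lies at chr8:105938393-105938642 (minus), Psmb5 at chr14:54617996-54618245 (minus) and Psmb6 at chr11:70525107-70525356 (plus).
Psmb8: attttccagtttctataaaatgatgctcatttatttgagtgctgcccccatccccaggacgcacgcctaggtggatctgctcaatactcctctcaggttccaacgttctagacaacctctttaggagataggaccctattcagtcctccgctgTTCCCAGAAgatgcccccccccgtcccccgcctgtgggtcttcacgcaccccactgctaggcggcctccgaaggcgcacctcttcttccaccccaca
Psmb9: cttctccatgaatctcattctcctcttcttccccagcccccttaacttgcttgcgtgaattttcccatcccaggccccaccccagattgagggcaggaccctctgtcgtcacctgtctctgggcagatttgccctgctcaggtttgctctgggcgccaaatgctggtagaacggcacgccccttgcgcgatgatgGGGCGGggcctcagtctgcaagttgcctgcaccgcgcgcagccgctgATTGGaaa
Psmb10: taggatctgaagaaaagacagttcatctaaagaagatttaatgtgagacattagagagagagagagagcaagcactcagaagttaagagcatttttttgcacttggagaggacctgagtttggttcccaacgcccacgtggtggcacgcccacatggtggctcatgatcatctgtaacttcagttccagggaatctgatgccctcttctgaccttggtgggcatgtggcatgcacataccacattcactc
Psmb5: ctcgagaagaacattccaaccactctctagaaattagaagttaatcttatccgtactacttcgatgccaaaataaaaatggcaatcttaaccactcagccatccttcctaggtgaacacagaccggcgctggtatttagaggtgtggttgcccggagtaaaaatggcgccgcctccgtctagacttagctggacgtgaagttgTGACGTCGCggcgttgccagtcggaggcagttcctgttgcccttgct
Psmb6: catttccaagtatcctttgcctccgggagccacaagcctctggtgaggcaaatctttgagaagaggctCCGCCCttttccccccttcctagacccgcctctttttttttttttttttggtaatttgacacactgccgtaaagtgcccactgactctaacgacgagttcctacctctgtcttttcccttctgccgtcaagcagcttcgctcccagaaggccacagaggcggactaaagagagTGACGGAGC
In capitals are a gamma-activated sequence (TTCNNNGAA, bound by STAT factors) in Psmb8, a GC box (GGGCGG) and a CCAAT box in Psmb9, an antioxidant response element core (TGACNNNGC, bound by Nfe2l1 and Nfe2l2 with small Maf partners) in Psmb5, and the same core with a GC box in Psmb6. The Psmb10 stretch held none of the motifs searched.

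The 6 ATPases of the regulatory particle all had means below wild-type in both altered genotypes, and 0 of 6 passed. Psmc1 in ε/ε (-0.0016) and Psmc2 in γ1/γ1 (-0.04) were barely below. Of all genes tested, 51.7% had lower means in ε/ε and 53.4% in γ1/γ1 than in wild-type cells. Psmc6 read 6.37, 6.94 and 6.56 in ε/ε, 7.65, 7.18 and 6.68 in γ1/γ1 and 7.36, 7.57 and 7.38 in wild-type cells. The ε/ε values lay below all wild-type ones, with a difference of -0.81 ± 0.24 (SE, adjusted p = 0.0702). Psmc2 had the lowest mean difference of the ring, -0.93 (adjusted p = 0.188), which rested on ε/ε replicate 1. It read 7.15, 8.60 and 9.11 in ε/ε and 9.10 to 9.29 in wild-type cells, and without that array the difference was -0.36. A second Psmc2 probe set read 5.86, 6.57 and 6.73 in ε/ε and 6.55 to 6.95 in wild-type cells, also lowest on that array. Psmc3 differed by -0.21 (adjusted p = 0.325) without overlap. Psmc4 differed by -0.31, Psmc5 by -0.12 and Psmc1 by -0.00, all with overlap. The median of the 6 was -0.26 in ε/ε and -0.18 in γ1/γ1.

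Among the 11 other subunits of the regulatory particle, 1 passed. Psmd14, the metalloprotease that removes ubiquitin chains from substrates as they enter, fell in ε/ε cells. Its upstream sequence, chr2:61711444-61711693 on the plus strand, carries a CCAAT box and 3 GC boxes in capitals and is shown as that of a gene that passed.
Psmd14: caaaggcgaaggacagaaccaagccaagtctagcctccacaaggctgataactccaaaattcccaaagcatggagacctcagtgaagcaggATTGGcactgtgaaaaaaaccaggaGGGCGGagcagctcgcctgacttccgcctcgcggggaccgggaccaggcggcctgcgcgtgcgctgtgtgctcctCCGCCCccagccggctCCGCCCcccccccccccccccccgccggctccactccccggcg
Psmd14 read 6.54, 6.69 and 6.32 in ε/ε, 6.91, 7.14 and 6.61 in γ1/γ1 and 7.27, 7.29 and 7.15 in wild-type cells. Both altered genotypes lay wholly below wild-type, and the ε/ε and γ1/γ1 values overlapped. Psmd14 in ε/ε differed from wild-type by -0.72 ± 0.17 (SE), or 1.65-fold, with an adjusted p of 0.0322. It no longer passed without ε/ε replicate 1 or 3 or without any 1 of the wild-type arrays (adjusted p up to 0.119), nor after quantile normalization (0.0786) or median centring (0.0562).

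Several lid subunits, which hold the ubiquitin-removing part together, had differences close to that of Psmd14. Psmd11 read 6.45, 6.66 and 6.49 in ε/ε, 6.56, 7.0 and 6.63 in γ1/γ1 and 7.02, 7.10 and 7.16 in wild-type cells. Both altered genotypes lay below wild-type, by -0.56 in ε/ε (adjusted p = 0.054) and -0.36 in γ1/γ1 (adjusted p = 0.709). Psmd6 read 6.41, 6.57 and 6.23 in ε/ε, 6.81, 6.36 and 6.55 in γ1/γ1 and 6.87, 6.98 and 7.14 in wild-type cells. Again neither altered genotype overlapped wild-type, with differences of -0.59 (adjusted p = 0.0585) and -0.42 (adjusted p = 0.686). Psmd12 differed by -0.64 in ε/ε cells (adjusted p = 0.0798), with ε/ε values of 6.85, 7.29 and 6.60 below the wild-type range of 7.48 to 7.70.

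Not every regulatory subunit had that direction. Psmd3, another lid subunit, read 5.44, 5.76 and 6.10 in ε/ε, 4.45, 4.99 and 5.18 in γ1/γ1 and 5.44, 4.78 and 5.38 in wild-type cells. Its ε/ε values lay above those of both other genotypes, narrowly so for wild-type, by 0.57 over wild-type (adjusted p = 0.198) and 0.90 over γ1/γ1 (adjusted p = 0.089), and neither passed. With a covariate for the 2 arrays of low Xist the latter had an adjusted p of 0.0419. Psmd4, a ubiquitin receptor, differed by 0.24 from wild-type (adjusted p = 0.453). Psmd7, the inactive partner of Psmd14, differed by 0.17 (adjusted p = 0.669), with ε/ε replicate 1 at 7.37 and the other ε/ε arrays at 6.65 and 6.55. Psmd8 differed by 0.02, Psmd13 by -0.15, and the large scaffold subunits Psmd1 and Psmd2 each by -0.22, all with overlap. The median of the 11 was -0.22 in ε/ε and -0.33 in γ1/γ1.

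Psmd5, Psmd9 and Psmd10 are chaperones that build the ATPase ring and are not subunits of the finished particle, and 0 of 3 passed. Psmd10 is X-linked and had the lowest difference of the whole set, -1.01 ± 0.29 (SE) with an adjusted p of 0.0647. It read 5.03, 5.76 and 6.26 in ε/ε, 6.15, 6.44 and 6.39 in γ1/γ1 and 6.56, 6.43 and 7.09 in wild-type cells. The ε/ε values lay below wild-type and were spread over more than 1 log2 unit, with ε/ε replicate 1, an array of low Xist, lowest. Without that array the difference was -0.68 (adjusted p = 0.135), and without ε/ε replicate 3 it was -1.30 (adjusted p = 0.0305). Psmd5 differed by 0.06 and Psmd9 by -0.09, both with overlap.

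**Figure D2:**
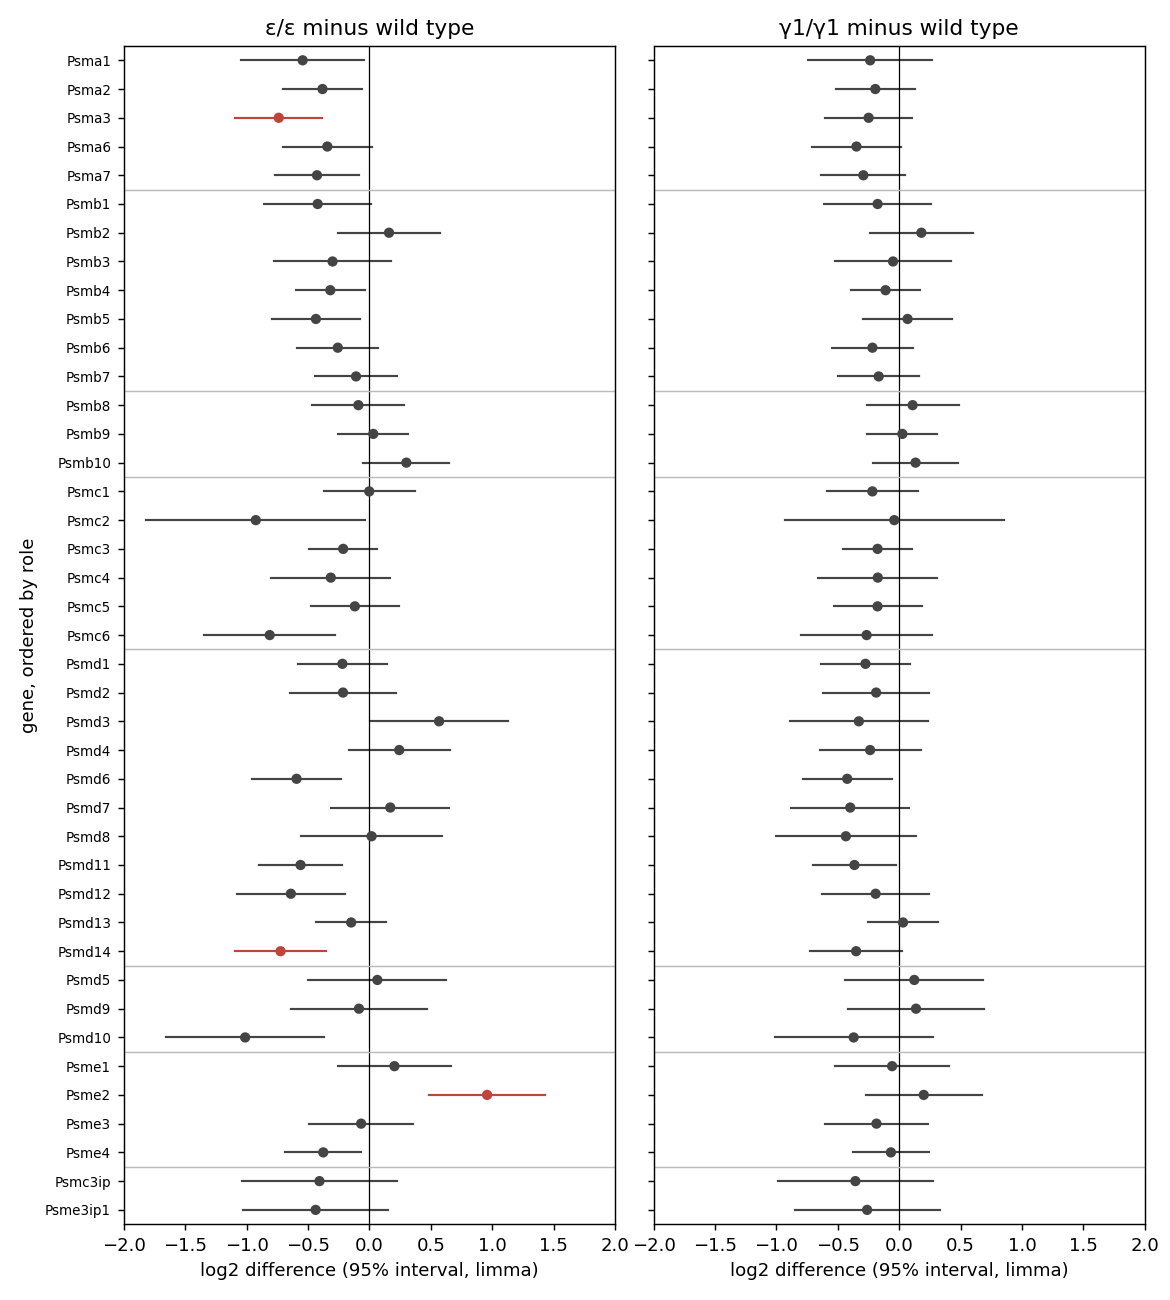
Difference of mean log2 signal between ε/ε and wild-type and between γ1/γ1 and wild-type for the 41 genes tested, grouped by role, with 95% intervals from the limma fit and genes that passed in red. Most core and regulatory genes lie left of 0 in both comparisons, with Psma3 at -0.74 and Psmd14 at -0.72 in ε/ε, while Psme2 lies at 0.96.

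Of the 4 activators, 1 passed. Psme2, the β chain of the PA28 activator that opens the core particle and favours peptides for MHC class I, rose in ε/ε cells. Its upstream sequence, chr14:55591102-55591351 on the minus strand, is shown for the same reason and holds a GC box. RefSeq lists another start for this gene, whose window is not printed.
Psme2: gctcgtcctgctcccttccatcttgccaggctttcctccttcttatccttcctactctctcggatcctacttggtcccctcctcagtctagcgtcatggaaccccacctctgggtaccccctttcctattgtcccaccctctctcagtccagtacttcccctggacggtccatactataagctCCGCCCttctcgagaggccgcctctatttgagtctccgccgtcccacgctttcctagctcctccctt
Psme2 read 5.32, 5.79 and 5.95 in ε/ε, 4.95, 5.02 and 4.82 in γ1/γ1 and 5.11, 4.41 and 4.68 in wild-type cells. All 3 ε/ε values lay above the other 6, and γ1/γ1 and wild-type overlapped. The difference from wild-type was 0.96 ± 0.21 (SE), or 1.94-fold, with an adjusted p of 0.0284, and the difference from γ1/γ1 was 0.76 with an adjusted p of 0.087. Without ε/ε replicate 1, the array with the highest macrophage average, the difference from wild-type was 1.14 (adjusted p = 0.0237). The other ε/ε arrays (4.43 and 3.98) also averaged above wild-type (3.62 to 3.70) on the macrophage list, so that fit is not free of this signal. The call was lost without ε/ε replicate 2 or 3 or wild-type replicate 2 or 3, with adjusted p-values of 0.0642, 0.0716, 0.114 and 0.0991.

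A brighter probe set shared by Psme2 and the gene copies 9930111J21Rik1 and 9930111J21Rik2 lay outside the naming rule. It read 7.17, 7.69 and 7.98 in ε/ε and 7.69, 7.71 and 7.36 in wild-type cells and overlapped. The probe sets therefore disagree, and which transcripts each one reads was not tested. Psme1, the α chain of PA28, read 7.65, 7.60 and 7.46 in ε/ε, 7.72, 7.41 and 6.80 in γ1/γ1 and 7.39, 7.38 and 7.34 in wild-type cells. The ε/ε values lay above wild-type by 0.20 (95% interval -0.26 to 0.67, adjusted p = 0.584), and γ1/γ1 overlapped both. Psme3, the nuclear PA28γ, differed by -0.07 (95% interval -0.49 to 0.35). Psme4, the nuclear single-chain activator, read 6.38, 6.04 and 6.26 in ε/ε and 6.54, 6.65 and 6.62 in wild-type cells, without overlap and with a difference of -0.38 (adjusted p = 0.133).

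**Figure D3:**
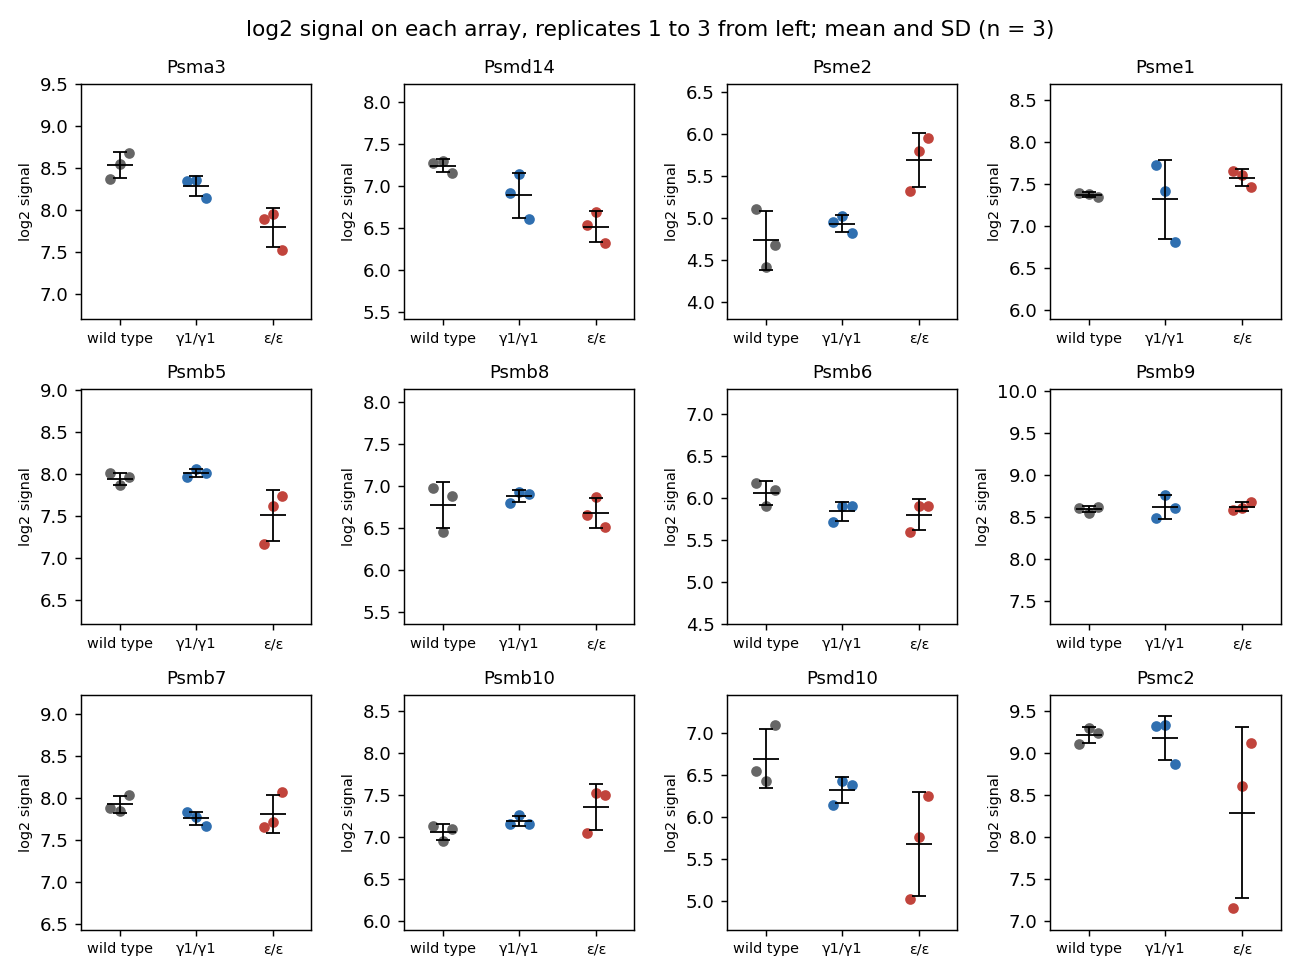
Log2 signal for 12 genes of the set on the 9 arrays, with 1 point per array, grouped by genotype, and the mean and SD of each group (n = 3). Psma3 and Psmd14 are lowest in ε/ε, Psme2 is highest there, and the inducible subunits overlap between ε/ε and wild-type.

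Side by side, the 29 tested genes of the constitutive core and the regulatory particle had a median difference of -0.31 between ε/ε and wild-type, with 24 below 0 and 2 passing as lower. Psmb8, Psmb9, Psmb10, Psme1 and Psme2 had a median of 0.20, with 4 of 5 above 0 and 1 passing as higher. This grouping was made with the values known and carries no test. Of all genes tested, 51.7% had lower means in ε/ε than in wild-type cells, 4.02% passed as lower and 2.33% as higher. On single arrays, the median of the 29 genes relative to the wild-type mean was -0.43, -0.15 and -0.22 in ε/ε, -0.26, -0.07 and -0.25 in γ1/γ1 and between -0.02 and 0.03 in wild-type cells. For the 5 inducible genes it was -0.01, 0.24 and 0.09 in ε/ε, 0.10, 0.17 and 0.09 in γ1/γ1 and 0.07, -0.10 and 0.03 in wild-type cells. The median of the constitutive genes thus lay under the wild-type mean on all 6 altered arrays (at -0.43 to -0.07), while that of the inducible genes lay between -0.01 and 0.24. The altered arrays share the wild-type baseline, so their differences are not independent of each other. Subtracting the wild-type mean also draws the wild-type medians towards 0. All genes tested had medians between -0.04 and 0.03. The lowest constitutive median was on ε/ε replicate 1, the array with the highest macrophage average. Without that array the ε/ε difference was -0.26 for the 29 genes and 0.16 for the 5.

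**Figure D4:**
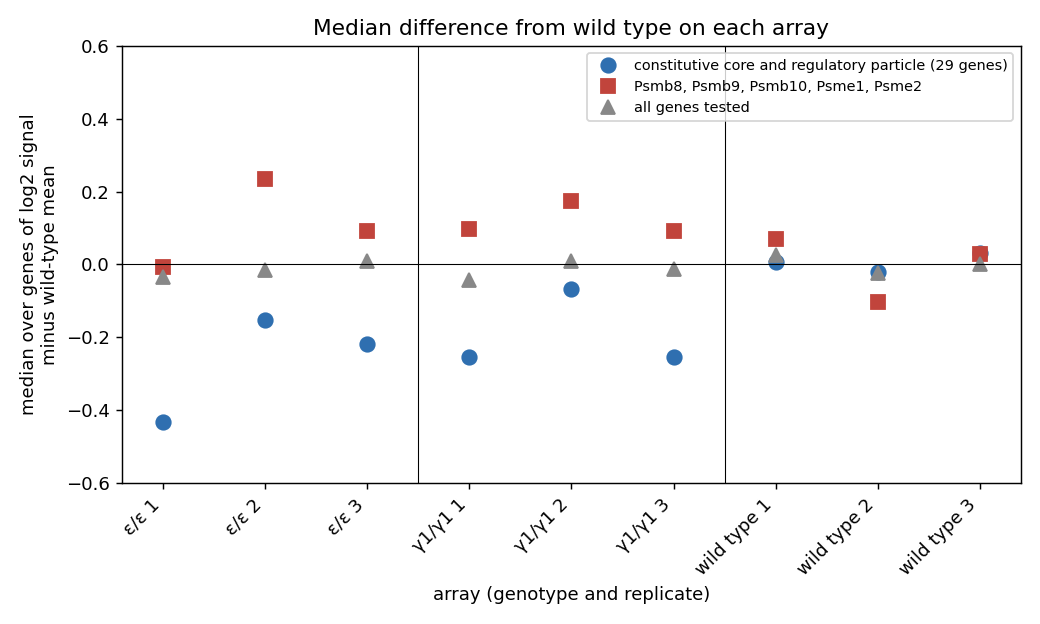
Median over genes of the log2 signal minus the wild-type mean on each of the 9 arrays, for 29 constitutive core and regulatory genes (circles), 5 inducible genes (squares) and all 12170 genes tested (triangles). The circles of all 6 altered arrays lie below 0, at -0.43 to -0.07, and the squares at or above the circles on those arrays.

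Psmc3ip, a recombination factor, and Psme3ip1, a protein that binds Psme3, meet the naming rule without being subunits. They differed by -0.41 and -0.44 between the ε/ε and wild-type means, without passing (adjusted p-values of 0.405 and 0.339).

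In γ1/γ1 cells, 0 of the 41 genes passed against wild-type in limma, where 0.0411% of all genes did. At an unadjusted p under 0.05 there were 2, Psmd6 and Psmd11, both lower, against 6.82% of all genes. Psmb10 was the 1 gene wholly above wild-type (4.68% of all genes), and 10 genes lay wholly below (7.71% of all genes). The mean was below wild-type for 32 of 41 genes, against 53.4% of all genes, with a median difference of -0.19 against -0.02. The genes lowest in their class included Psmd8 (-0.43, with γ1/γ1 replicate 1 at 6.31 and the other 2 arrays at 7.29 and 7.26), Psma6, Psmb6 (-0.22) and Psmd10 (-0.37). The highest of all was Psme2 at 0.20. None of these passed.

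Between ε/ε and γ1/γ1, 0 of 41 genes passed in limma, where 2.66% of all genes did. At an unadjusted p under 0.05 there were 9, of which 4 were higher and 5 lower in ε/ε, against 19.9% of all genes. The groups did not overlap for 4 genes with higher ε/ε values, Psmd3, Psmd4, Psmd7 and Psme2 (9.86% of all genes), and for 4 with lower ones, Psma3, Psmb4, Psmb5 and Psme4 (11.3% of all genes). The mean was lower in ε/ε for 27 of 41, against 50% of all genes, and the median difference was -0.14. So Psma3, which differed by -0.49 from γ1/γ1, had an adjusted p of 0.131 there and is not shown to differ between the altered genotypes. The moderated F test for any difference among the 3 genotypes passed 0 of 41 (4.11% of all genes), with 11 at an unadjusted p under 0.05 (21.6% of all genes).

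Genes that work with the proteasome were counted over the same fit, in which 2.33% of all genes passed as higher and 4.02% as lower in ε/ε cells. Of 7 genes tested in a list of assembly factors and inhibitors, 1 fell in ε/ε cells. This was Akirin2, which carries proteasomes into the nucleus. It read 7.32, 7.40 and 7.44 in ε/ε, 7.83, 7.92 and 8.21 in γ1/γ1 and 7.82, 8.24 and 7.96 in wild-type cells. The ε/ε values lay below all others, by -0.62 from wild-type (adjusted p = 0.0459), and this call was lost when any 1 of 7 arrays was left out (adjusted p up to 0.162). Of 12 receptors, deubiquitinases and other partners, Ube3a fell and Ubqln2 rose, 1 gene each way against those 4.02% and 2.33%. Ube3a, a ubiquitin ligase that binds the proteasome, read 7.01, 7.34 and 7.20 in ε/ε, 8.0, 8.01 and 8.23 in γ1/γ1 and 8.22, 8.24 and 8.21 in wild-type cells. The ε/ε values lay below the other 6, by -1.04 from wild-type (adjusted p = 0.00397) and -0.90 from γ1/γ1 (adjusted p = 0.0111), and the call against wild-type held in each of 20 alternatives. The call against γ1/γ1 was lost in 2 of them, with only the arrays of high Xist (adjusted p = 0.0583) and with only the 6 arrays compared (0.0577). Ubqln2, a shuttle that carries tagged proteins to the proteasome, was higher by 0.76 (adjusted p = 0.0337), and this was lost without any 1 of the ε/ε or wild-type arrays.

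Of 11 regulators of proteasome gene transcription, Ngly1 fell and Maff rose in ε/ε cells, against 4.02% lower and 2.33% higher among all genes. Ngly1, the deglycosylase that activates Nfe2l1, read 5.84, 6.27 and 6.07 in ε/ε, 6.26, 6.72 and 6.85 in γ1/γ1 and 6.95, 7.27 and 7.20 in wild-type cells. The difference was -1.08 (adjusted p = 0.0123), and leaving out replicate 2 or 3 of wild-type raised the adjusted p to as much as 0.0606. Maff, a small Maf factor near the array median, differed by 0.84 (adjusted p = 0.0416), lost without any 1 of 7 arrays. Nfe2l1 itself, the factor that raises proteasome genes when degradation is blocked, differed by 0.46 (adjusted p = 0.297) and Nfe2l2 by 0.16 (adjusted p = 0.652). Of 7 genes of ubiquitin supply and unfolding, 0 passed in limma. The smallest p-values were those of Uba6 (-0.49, adjusted p = 0.1) and Ube2d3 (0.34, adjusted p = 0.156).

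Of 11 genes that handle peptides after the proteasome, 2 rose in ε/ε cells, where 2.33% of all genes did, and 0 fell, where 4.02% did. Tapbp, which loads peptides on class I molecules, read 6.70, 6.28 and 6.50 in ε/ε, 5.26, 5.73 and 5.73 in γ1/γ1 and 5.61, 5.57 and 4.90 in wild-type cells. Its ε/ε mean was higher by 1.13 (adjusted p = 0.0183). H2-K1, a class I heavy chain with near-identical relatives, differed by 0.62 (adjusted p = 0.02). Both calls were lost without wild-type replicate 2 or 3, and that of Tapbp also without ε/ε replicate 1. Tap1, which pumps peptides and is a neighbour of Psmb9, differed by 0.20 (adjusted p = 0.636). Of 6 interferon-responsive factors, Irf2 fell by 0.51 on the log2 scale (adjusted p = 0.0454, with 4.02% of all genes lower), a call lost without any 1 of 8 arrays. Irf1 differed by 0.71 (adjusted p = 0.063), with its highest value, 6.43, on ε/ε replicate 1. In γ1/γ1 cells, 0 genes of these lists passed against wild-type.

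RefSeq windows of 250 bases before to 50 bases after the start were at hand for 37 of the 44 genes, as 41 windows. Both strands were searched. A GC box was found in 23 of the 41 windows, from 22 genes, and in 35.7% of all 32851 promoter windows. A CCAAT box was found in 16 of the 41 windows, from 16 genes, a share similar to the 37.4% of all windows. The antioxidant response element core was found in 6 genes, Psmb5, Psmb6, Psmc6, Psmd12, Psmd9 and Psme4, and in 12.4% of windows. The gamma-activated sequence was found in Psmb8 and Psmd2 and in 8.3% of windows, and the core of the NRF1 palindrome in Psma2 and in 0.971%. An interferon-stimulated response element core (GAAA, any 2 bases, GAAA) was found in 4 genes, Psmb3, Psmd4, Psmd9 and Psme1, and in 3.44% of windows. The Psme1 match lay just after the start, in chr14:55578493-55578522 on the plus strand, and is shown because Psme1 pairs with Psme2.
Psme1: cgagctgtgcTTTCGCTTTCccttcccgct
Such matches describe letters in these windows. No motif of the list was found in all 3 genes that passed: Psma3 and Psmd14 held a CCAAT box, and Psmd14 and Psme2 a GC box.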

How the data were processed

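Transcript levels in sorted splenic follicular B cells were measured on 9 arrays of 1 colour, 3 for each of 3 genotypes. Per the labels' protocols, 54 to 360 ng of total RNA was amplified and 2.5 µg of cDNA labelled with biotin. The authors deposited log2 signals of 41345 probe sets, and the submitters' processing notes name R 3.3.1. How the background was corrected, arrays normalized and probes summarised is not given in the sources used here. Array medians lay between 3.53 and 3.69. For arrays, their number limits the precision.

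Symbols came from the platform's annotation. The brightest probe set with 1 symbol stood for a gene. All 9 arrays entered 1 limma 3.58.1 model (R 4.3.3, eBayes, 6 residual degrees of freedom) with Benjamini-Hochberg adjustment over the 12170 genes whose signal exceeded the array median on at least 3 of 9 arrays. Every adjusted p is limma's unless a permutation test is named. The SE of a gene's difference is likewise limma's, with the spread pooled over the 9 arrays and moderated across genes. Pair ratios were tested with exact permutation in scipy 1.17.1, and their SE comes only from the arrays of the genotypes compared, so the 2 kinds of SE are not alike. On data simulated for ε/ε against wild-type over 12170 genes, the fit recovered 68 of 100 genes with a log2 change of 1 and 96 of 100 with a change of 2, with 9 false among 173 calls. The simulated noise was normal, independent between genes and arrays, and of equal spread in the 3 genotypes. The data differ from this: Psmc2 had an SD of 1.02 in ε/ε and 0.10 in wild-type cells. These rates therefore need not hold for the real calls.

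The gene set, the role classes, the partner and marker lists and the tests were chosen with earlier results of these data known. Named with values were all genes that passed, the catalytic, inducible and activator genes, and the extremes of each role class. The other genes of the set are given too, as an account of every member. From the partner lists, up to 4 genes that passed were named, or else the 2 with the smallest p. Nfe2l1, Nfe2l2, Tap1 and Irf1 were added for their roles, after their values were seen. Alternatives were quantile normalization, median centring, other filters, averaged probe sets, another variance model, a replicate block, an Xist covariate, only arrays of high Xist, only 6 arrays, each array left out, and a looser threshold. Whether equal replicate numbers mark shared animals, litters or days is not given in the labels, so the main model had no replicate block. The correlations of same-numbered deviations lay between -0.09 and 0.16. They cannot decide whether arrays were paired, since differently numbered arrays were not compared.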

Additional observations from a re-analysis of the deposited data

How the results depend on the processing

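The count of 3 genes called between ε/ε and wild-type was the least stable result. It was 1 after quantile normalization (Psme2), 1 with only the arrays of high Xist (Psme2), 1 with only the 6 arrays compared (Psmd14), 7 with the filter at percentile 75 and 8 at an adjusted p under 0.1. With 1 array left out it ranged from 0 to 5, being 0 without wild-type replicate 2 or replicate 3, 1 without ε/ε replicate 3 and 5 without γ1/γ1 replicate 1. Between ε/ε and γ1/γ1 the count of 0 became 1 with the Xist covariate (Psmd3) and 2 at an adjusted p under 0.1. For any difference among genotypes it became 1 after quantile normalization, with the trended variance and with the Xist covariate, 2 with the filter at percentile 75, 3 at an adjusted p under 0.1, and 0 to 1 with 1 array left out. Between γ1/γ1 and wild-type it was 0 in every alternative run.

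The median of the constitutive genes between ε/ε and wild-type was -0.17 after quantile normalization and -0.21 with the Xist covariate, against -0.31 as reported. That of the 5 inducible genes was 0.38 and 0.082 in the same order, against 0.20. Between ε/ε and γ1/γ1 the inducible median was 0.31 with only the arrays of high Xist and 0.0077 to 0.22 with 1 array left out, lowest without γ1/γ1 replicate 3. Between γ1/γ1 and wild-type it was 0.0044 to 0.17, lowest without wild-type replicate 2. No result reversed its call. Among all genes called, the share higher in ε/ε was 36.7% against wild-type and 38.3% against γ1/γ1 as deposited, 57.8% and 53.4% after quantile normalization, and 45.6% and 54.5% after median centring. The set's split of 1 higher and 2 lower became 1 and 0 under quantile normalization. The causes of these shifts were not tested.

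With the replicate number as a block, the ε/ε and wild-type comparison called 3 genes (Psma3, Psmd10 and Psmd14), and Psme2 had an adjusted p of 0.0544. The block gave 0 in the other comparisons. What arrays of equal number share is not given in the labels, and the 2 arrays of low Xist are both replicate 1.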

Other observations

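Identical signals to every deposited digit recur between arrays. Of 41345 probe sets, 45.9% held the same value on at least 2 of the 9 arrays, as did 13 of the 44 probe sets that stand for the genes of this set. Psmb6 held 5.91 on 5 arrays, Psmd13 held 5.19 on 4, and Psmb9 held 8.60 on 3. Such ties narrow the measured spread of a gene, and their cause was not tested.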
